A study of Homo sapiens with 12 samples.

Results

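The 10 genes described here encode chaperones, folding enzymes and control proteins of the endoplasmic reticulum (ER) unfolded protein response: HSPA5, HSP90B1, DNAJB9, DNAJC3, SDF2L1, PDIA4, PDIA6, CRELD2, HERPUD1 and XBP1. They were chosen by symbol from the 19447 gene symbols of a count matrix, and all 10 were found and passed the filter on low counts in every comparison. The choice was made with earlier results of these data known. Counts of the 10 beside the shares of all genes are therefore descriptions. The matrix holds poly(A)-selected RNA of 12 libraries, 3 in each of 4 groups. K562 is a human myeloid leukemia line that carries the BCR-ABL fusion, and the K562 group was the untreated control. The K562+L group was K562 treated with lycorine, a plant alkaloid, at 6 µM. K562/IM is a line derived from K562 by stepwise exposure to imatinib (IM), an inhibitor of BCR-ABL, and propagated in 5 µM of the drug. The fourth group, labelled K562/IM+L, was K562/IM treated with lycorine at 6 µM. Whether IM was present during that treatment, and how long cells were exposed before RNA was taken, is not given. K562/IM is a single derived line, and the labels do not say that the 3 libraries of a group came from separate cultures. The p-values therefore measure the spread between these libraries, which may be technical.

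Proteins that enter the ER are folded there with the help of chaperones, glycosylated and joined by disulfide bonds. When unfolded proteins accumulate, the sensors IRE1 (gene ERN1), PERK (gene EIF2AK3) and ATF6 signal to the nucleus. IRE1 splices the messenger RNA of XBP1 into a form that encodes an active transcription factor, ATF6 is cut by the site-1 and site-2 proteases to release another, and PERK slows translation and raises ATF4. The genes of the set are textbook targets of ATF6 and XBP1, and some also of ATF4, and XBP1 itself is one of the factors. Counts per gene do not separate the spliced from the unspliced XBP1 transcript.

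Total counts ran from 75093844 to 107344598 per library. Levels are given in CPM, each count as a share of its TMM-scaled library and multiplied to a common total. The K562 identity was checked with GATA1 (180 to 275 CPM in the 12 libraries) and KLF1 (81.4 to 377 CPM), erythroid transcription factors expressed by this line. Of 9 markers of T cells, B cells, epithelium and fibroblasts, 6 stayed under 1 CPM in every library, whereas EPCAM reached 132 CPM, CD3D 23.0 CPM and COL1A1 5.26 CPM. The 9 summed to 126 to 136 CPM in K562, 107.4 to 119.9 CPM in K562+L, 71.0 to 75.1 CPM in K562/IM and 85.5 to 106 CPM in the K562/IM+L group, and most of each sum was EPCAM. Without EPCAM the other 8 summed to 24.3 to 28.1 CPM in K562/IM, 2.19 to 3.40 CPM in K562, 1.10 to 1.27 CPM in K562+L and 1.01 to 1.45 CPM in the K562/IM+L group. CD3D averaged 22.0 CPM in K562/IM and 2.15 CPM in K562, COL1A1 averaged 4.28 and 0.484 CPM, and MS4A1 was at 0 in all libraries. The part of these markers in the results was not tested. For the K562/IM+L group, the sample titles give the code G2 and the study figures give G6. The drug efflux transporter gene ABCB1 stood at 21.9 to 25.9 CPM in K562/IM, at 1.68 to 1.86 CPM in K562, at 3.83 to 5.15 CPM in K562+L and at 0.488 to 1.06 CPM in the IM+L-labelled libraries. Because the codes differ, the latter are called IM+L-labelled libraries, and every direction drawn from them rests on that label. Fewer cells of a type and less RNA per cell cannot be told apart in bulk RNA.

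Summed over the 10 genes, the level was 4030 ± 106 CPM (SD, n = 3) in K562, 1970 ± 78.3 CPM in K562+L, 2705 ± 58.1 CPM in K562/IM and 2926 ± 135 CPM in the IM+L-labelled libraries. The share of the 10 genes in the raw counts averaged 0.387%, 0.192%, 0.296% and 0.286% in the same order. K562/IM and the IM+L-labelled libraries thus changed places, and the order of their sums rests on the scaling. TMM factors were 1.09 to 1.10 in K562/IM and 0.954 to 1.02 in the IM+L-labelled libraries. HSPA5, HSP90B1, PDIA4, PDIA6 and SDF2L1 were lower in K562+L than in K562, and lower in K562/IM than in K562. In the IM+L-labelled libraries, HSPA5, PDIA4, PDIA6, HERPUD1, CRELD2 and DNAJB9 were higher than in K562/IM, and HSP90B1 and DNAJC3 were lower. SDF2L1 and XBP1 passed the test as higher there too. Over 6 refits, each without a single library of this comparison, SDF2L1, XBP1 and DNAJC3 lost their calls in 5, HSP90B1 in 4 and HSPA5 in 3, and DNAJC3 and SDF2L1 changed sign with a length trend removed, as did XBP1. DNAJC3 and XBP1 moved least, with absolute log2 differences of at most 0.30 in every pairwise comparison.

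To compare genes, CPM was divided by the length of the principal transcript in GENCODE release 29. In K562 this gave 573 ± 9.13 CPM per kb (SD, n = 3) for HSP90B1, 463 ± 92.3 for SDF2L1, 291 ± 10.3 for PDIA6 and 201 ± 6.28 for HSPA5. PDIA4 followed at 90.8 ± 4.35 CPM per kb and XBP1 at 58.4 ± 1.81. The lowest levels per kb were those of HERPUD1 (18.7 ± 0.775), CRELD2 (18.4 ± 5.09), DNAJB9 (10.2 ± 1.37) and DNAJC3 (8.01 ± 0.845). HERPUD1 and CRELD2 did not differ beyond the spread of CRELD2, and the ranges of 1 SD around DNAJB9 and DNAJC3 overlapped. The first 6 genes kept this order in all 4 groups, and the last 4 did not. HERPUD1 stood at 8.23 ± 0.640 CPM per kb in K562+L, beside DNAJC3 at 8.33 ± 0.800, and at 33.8 ± 1.97 in the IM+L-labelled libraries.

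**Figure D1:**
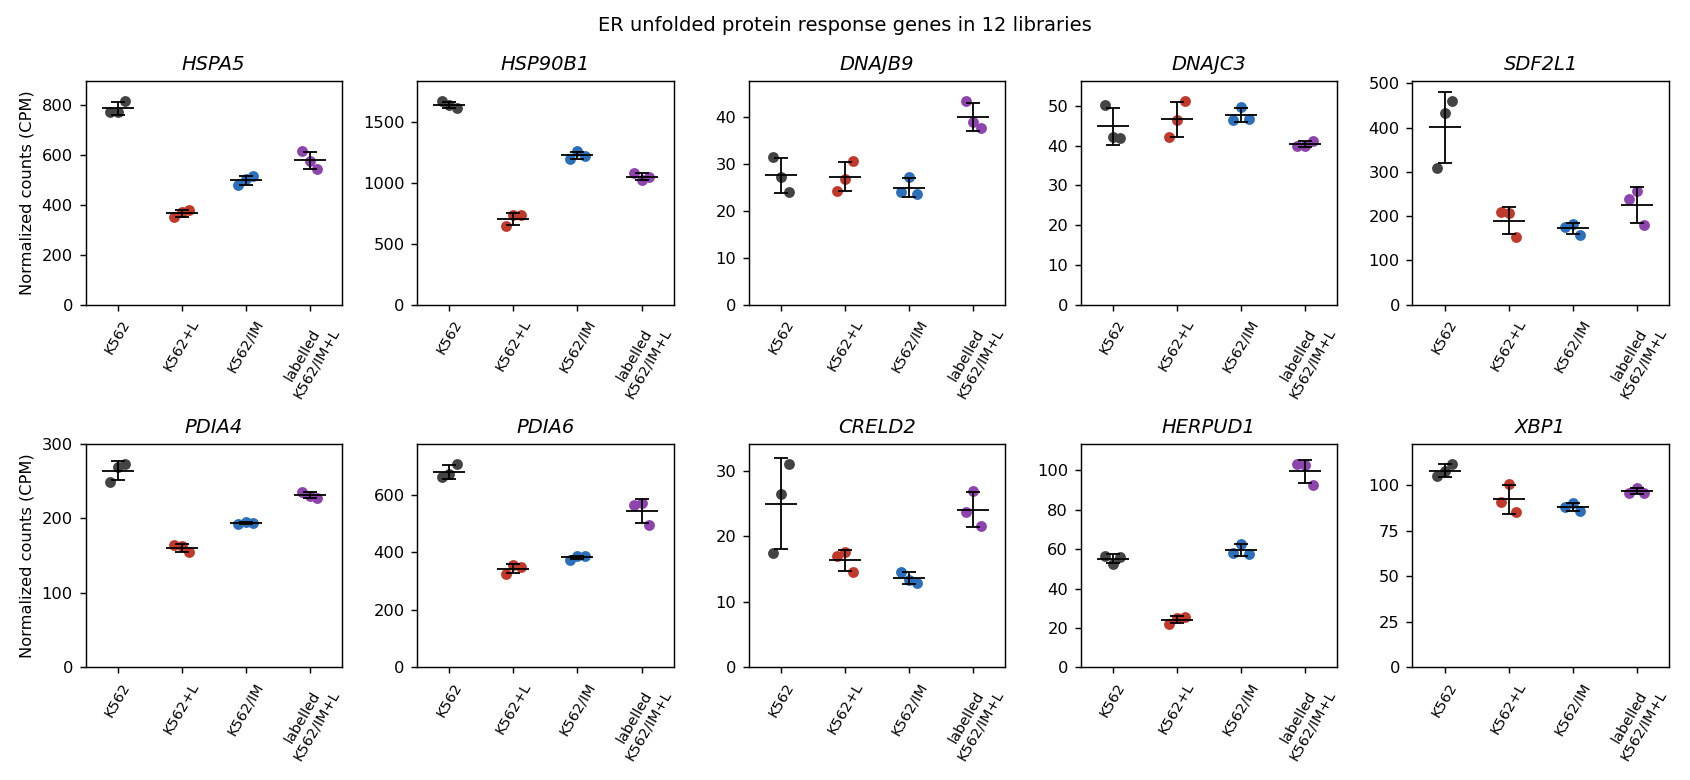
Level of each of the 10 genes in the 12 libraries, in CPM on a linear axis from 0, by group. Points are libraries, and the horizontal line and bars are the mean and SD of 3 libraries. HSPA5 sits at 771 to 814 CPM in K562 and at 351 to 379 CPM in K562+L, whereas the 3 IM+L-labelled HERPUD1 points (92.7 to 103 CPM) lie above all others.

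The promoters were searched because the genes are grouped by a shared response and not by sequence. The ER stress response element (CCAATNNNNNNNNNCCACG), which ATF6 is known to bind with the factor NF-Y, and its second form (ATTGGNCCACG) were looked for on both strands of RefSeq windows from 250 bases before to 50 bases after each start (GRCh38.p14, 13 windows for the 10 genes). The first element was found in 27 of 35116 windows, 0.0769%, and in 25 of 27305 genes, 0.0916%, among them 5 of the 10. The second was found in 19 windows, 0.0541%, and in 19 genes, 0.0696%, among them 2 further genes of the set. The stretches that hold them are printed 5′ to 3′ on the strand of the gene, with the fixed letters of the element in capitals. They are shown because 7 of the 10 genes carry such a match. Both the genes and the elements were taken from what is known of this response, and the matches are a description without a test.
HSPA5, chr9:125241344-125241463, minus strand: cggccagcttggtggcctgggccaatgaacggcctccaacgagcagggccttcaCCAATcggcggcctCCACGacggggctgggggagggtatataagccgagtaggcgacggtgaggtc
HSP90B1 far site, chr12:103930211-103930240, plus strand: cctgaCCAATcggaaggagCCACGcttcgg
HSP90B1 near site, chr12:103930316-103930345, plus strand: gggtgCGTGGtgcggcgcgATTGGtgggtt
PDIA6, chr2:10812847-10812876, minus strand: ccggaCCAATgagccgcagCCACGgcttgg
CRELD2, chr22:49918549-49918578, plus strand: cctctCGTGGcgaactcggATTGGgccata
XBP1, chr22:28800597-28800626, minus strand: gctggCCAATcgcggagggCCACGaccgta
HERPUD1, second form, chr16:56932016-56932045, plus strand: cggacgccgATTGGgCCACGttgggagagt
SDF2L1, second form, chr22:21642105-21642134, plus strand: cctcggaagCGTGGaCCAATcaaaaccctc

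The elements of HSPA5, PDIA6 and XBP1 began 66, 86 and 52 bases before the RefSeq start and read in the direction of the gene, in PDIA6 before its second listed start. HSP90B1 held 1 match in the direction of the gene, 194 bases before the start, and 1 on the opposite strand, 89 bases before it. The match of CRELD2, 80 bases before the start, and that of SDF2L1, 188 bases before it, were on the opposite strand, and that of HERPUD1 began 117 bases before the start. By GENCODE, the stretches of HSPA5, SDF2L1, PDIA6, CRELD2 and HERPUD1 touch no exon, and those of HSP90B1 and XBP1 do. No match of different elements overlapped another. DNAJB9, DNAJC3 and PDIA4 had no exact match in these windows, which says only that these letters are not there. The unfolded protein response element (TGACGTGG) and the C/EBP-ATF composite element (TGATGNAAT) were in 0.729% and 0.991% of all windows, in 0.927% and 1.22% of all genes, and in 0 of the 10 genes. A match describes letters, and binding was not measured.

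**Figure D2:**
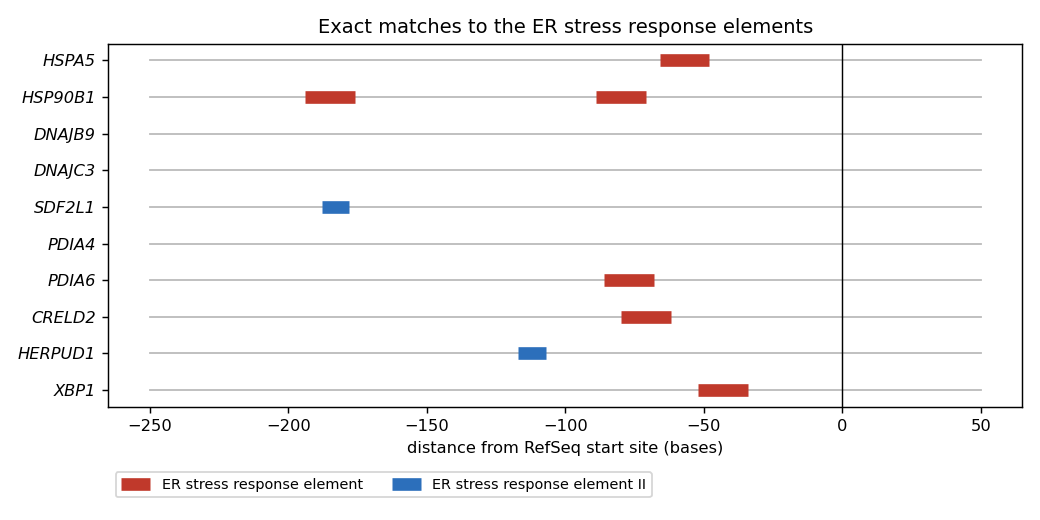
Exact matches to the ER stress response element (red) and its second form (blue) in the promoter windows of the 10 genes. The x axis is the distance from the RefSeq start in bases, and each grey line is the 300 bases searched. The matches lie from 194 to 34 bases before the start, and DNAJB9, DNAJC3 and PDIA4 have none.

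To ask what lycorine did in imatinib-sensitive cells, K562+L was compared with K562 by edgeR's quasi-likelihood test over all 12927 genes tested, and a gene was called at a Benjamini-Hochberg adjusted p under 0.05. In K562+L, 7 of the 10 genes fell and 0 rose, where 19.0% of all genes were called lower and 18.2% higher. The median log2 fold change of the 10 genes was -0.85, and that of all genes was -0.000117. HSP90B1, HERPUD1, HSPA5 and SDF2L1 also passed an absolute log2 fold change of 1, as did 6.39% of all genes. At an adjusted p under 0.01, 6 of the 10 were called, where 17.5% of all genes were.

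To ask how the resistant line differed from its parent, K562/IM was compared with K562. K562/IM was propagated in IM, and whether IM was present when RNA was taken is not given. The line and exposure to IM cannot be told apart here. Again 7 of the 10 genes were lower and 0 higher, where 27.1% of the 13406 genes tested were called lower and 30.1% higher. The median was -0.43, against 0.04 for all genes. SDF2L1 alone passed an absolute log2 fold change of 1, where 19.1% of all genes did. At an adjusted p under 0.01, 7 of the 10 were called, where 42.5% of all genes were. Both comparisons share the K562 libraries, so that a high or low K562 library moves both.

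To ask what lycorine did in resistant cells, the IM+L-labelled libraries were compared with K562/IM. In the former, 8 of the 10 genes rose and 2 fell, where 33.2% of the 13727 genes tested were called higher and 33.6% lower. The median was 0.34, against -0.01 for all genes, and 0 of the 10 passed an absolute log2 fold change of 1, where 28.5% of all genes did. An adjusted p under 0.01 was reached by 5 of the 10, a share near that of all genes, 53.7%. The number called ran from 5 to 10 when single libraries were left out. It was 5 without K562/IM replicate 1 or 2, and 6 without K562/IM replicate 3 or without replicate 1 or 2 of the IM+L-labelled libraries. DNAJB9, PDIA4, PDIA6, CRELD2 and HERPUD1 kept their calls each time.

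Set against K562, the IM+L-labelled libraries had 2 of the 10 genes higher and 4 lower, where 28.2% and 27.8% of the 13307 genes tested were called. These shares lie near those of all genes. The median was -0.20, against 0.02 for all genes, and 0 of the 10 passed an absolute log2 fold change of 1, where 23.8% of all genes did. An adjusted p under 0.01 was reached by 4 of the 10 and by 40.0% of all genes.

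**Figure D3:**
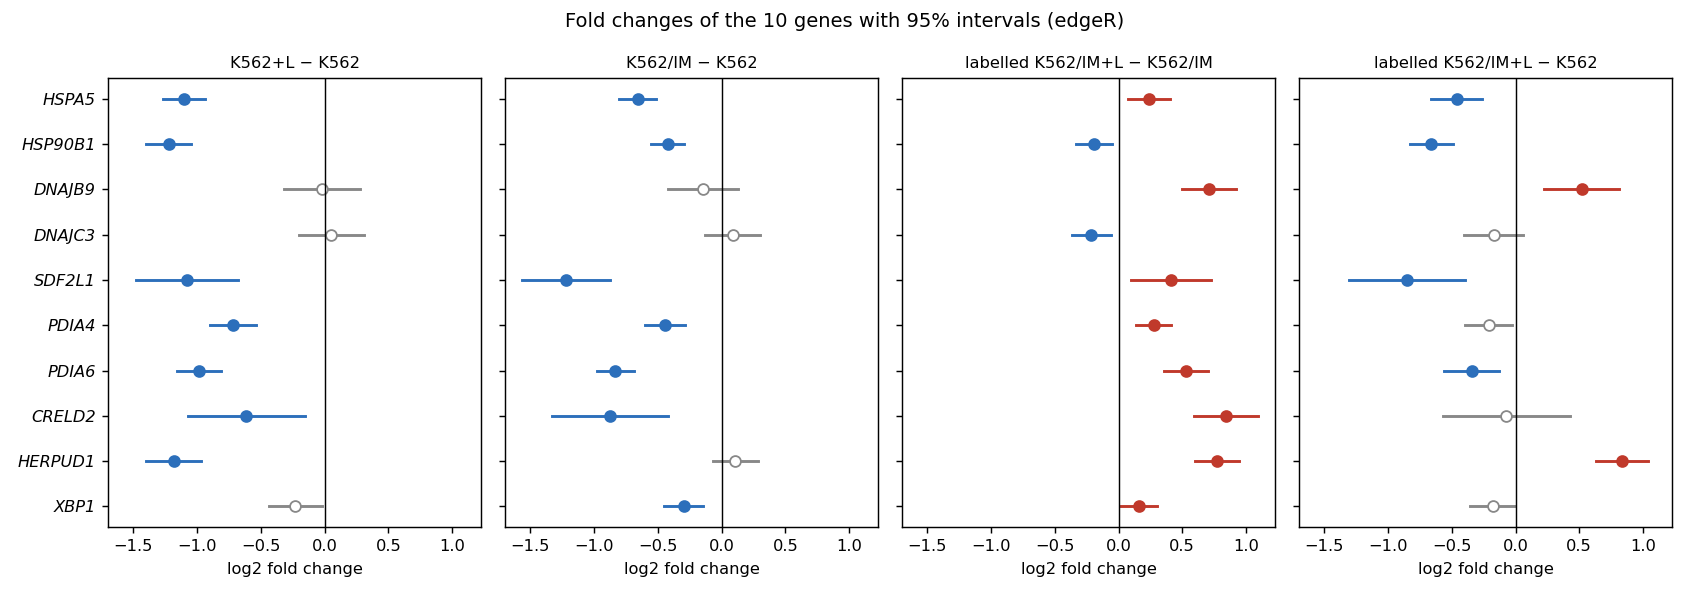
Log2 fold change of the 10 genes in 4 comparisons, with 95% confidence intervals from edgeR. Filled points passed an adjusted p of 0.05 (red higher, blue lower) and open points did not. HSPA5 moves from -1.10 in K562+L against K562 to 0.24 in the IM+L-labelled libraries against K562/IM, and DNAJC3 stays between -0.21 and 0.09.

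HSPA5 (chr9:125234853-125241330, minus strand) encodes BiP, the Hsp70 of the ER, which binds unfolded chains and holds the sensors inactive. It measured 774, 771 and 814 CPM in the 3 K562 libraries, 351, 370.1 and 379 CPM in K562+L, 479.9, 502 and 514 CPM in K562/IM, and 615, 575 and 544 CPM in the IM+L-labelled libraries. The 4 groups did not overlap, with K562 highest and K562+L lowest. HSPA5 fell by 1.10 on the log2 scale in K562+L (SE 0.0713, adjusted p = 8.91e-05) and was lower by a log2 difference of -0.66 in K562/IM than in K562 (SE 0.0620, adjusted p = 9.29e-05). It rose by 0.24 in the IM+L-labelled libraries over K562/IM (SE 0.0696, adjusted p = 0.0174), where they still stood below K562 (log2 fold change -0.46, adjusted p = 0.00296). The rise over K562/IM lost its call without K562/IM replicate 1 (adjusted p = 0.0884) or 2 (0.0588), or without replicate 1 of the IM+L-labelled libraries (0.0767).

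HSP90B1 (chr12:103930107-103953645, plus strand) encodes GRP94, the Hsp90 of the ER. It measured 1666, 1634 and 1614 CPM in K562 and 643, 732 and 732 CPM in K562+L. In K562/IM it stood at 1196, 1255 and 1219 CPM, and in the IM+L-labelled libraries at 1079.8, 1025 and 1042 CPM. As for HSPA5, no groups overlapped and K562+L was lowest, but the order of the IM groups was the opposite one. HSP90B1 fell by 1.22 on the log2 scale in K562+L (SE 0.0763, adjusted p = 7.92e-05), and its log2 fold change in K562/IM against K562 was -0.42 (adjusted p = 4.63e-04). The IM+L-labelled libraries had less of it than K562/IM (log2 fold change -0.20, SE 0.0598, adjusted p = 0.0215) and less than K562 (-0.66, adjusted p = 2.56e-04). The difference of -0.20 lost its call in 4 of the fits that left out 1 library (without any K562/IM library, or without replicate 2 of the IM+L-labelled libraries, adjusted p from 0.0606 to 0.0832). Exons of C12orf73 overlap HSP90B1 on the other strand, and the strand setting of the counting is not stated.

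DNAJB9 and DNAJC3 encode co-chaperones of BiP, and neither passed the test in K562+L or in K562/IM against K562. DNAJB9 (chr7:108569568-108574850, plus strand) encodes ERdj4, a J-domain protein known to recruit BiP to IRE1. Its level was 31.5, 27.1 and 24.1 CPM in K562, 24.3, 26.9 and 30.5 CPM in K562+L, and 24.0, 27.2 and 23.5 CPM in K562/IM. The IM+L-labelled libraries held 43.3, 38.9 and 37.7 CPM. The latter were above every other library, and the other 3 groups overlapped. Between K562+L and K562 the log2 fold change was -0.02 (95% confidence interval -0.32 to 0.28, adjusted p = 0.927), and between K562/IM and K562 it was -0.15 (-0.42 to 0.13, adjusted p = 0.316). DNAJB9 rose in the IM+L-labelled libraries over K562/IM (0.71, SE 0.0903, adjusted p = 3.20e-04) and was higher there than in K562 (0.52, adjusted p = 0.0102). Exons of PNPLA8 and THAP5 overlap DNAJB9 on the other strand.

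DNAJC3 (chr13:95677139-95794989, plus strand) encodes the J-domain protein p58IPK, an inhibitor of PERK. Its 12 values lay between 39.8 and 51.1 CPM. They were 50.3, 42.2 and 41.9 CPM in K562, 42.2, 46.4 and 51.1 CPM in K562+L, 46.4, 49.7 and 46.7 CPM in K562/IM, and 39.9, 39.8 and 41.2 CPM in the IM+L-labelled libraries. Only K562/IM and the IM+L-labelled libraries were apart beyond the test, by a log2 fold change of -0.21 (SE 0.0657, adjusted p = 0.0218). That call was lost without any K562/IM library and without replicate 1 or 2 of the IM+L-labelled libraries (adjusted p from 0.0529 to 0.0819). Against K562, the log2 fold change was 0.05 in K562+L (95% confidence interval -0.20 to 0.31), 0.09 in K562/IM (-0.13 to 0.30) and -0.17 in the IM+L-labelled libraries (-0.41 to 0.06).

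SDF2L1 (chr22:21642261-21644298, plus strand) encodes a lumenal partner of ER J-domain proteins. It measured 309.9, 434 and 459 CPM in K562, 209.8, 206 and 154 CPM in K562+L, 176, 183 and 158 CPM in K562/IM, and 238, 258 and 179.6 CPM in the IM+L-labelled libraries. Every K562 library was above all others, K562+L overlapped K562/IM, and the third library labelled K562/IM+L lay within the K562/IM range. SDF2L1 fell by 1.08 on the log2 scale in K562+L (SE 0.174, adjusted p = 0.00324), and its log2 fold change in K562/IM was -1.22 (SE 0.148, adjusted p = 3.20e-04). In the IM+L-labelled libraries it was higher than in K562/IM (0.41, SE 0.134, adjusted p = 0.0274) and lower than in K562 (-0.85, SE 0.193, adjusted p = 0.00798). The difference of 0.41 lost its call in 5 of 6 fits that left out 1 library (adjusted p from 0.0510 to 0.100) and turned to -0.14 once a trend with transcript length was removed, as given under transcript length.

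PDIA4, PDIA6 and CRELD2 encode proteins of disulfide exchange. PDIA4 (chr7:149003062-149028641, minus strand) encodes ERp72, a protein disulfide isomerase. It measured 249, 269 and 273 CPM in K562, 164, 163 and 155 CPM in K562+L, 193, 195 and 194 CPM in K562/IM, and 235, 231 and 227 CPM in the IM+L-labelled libraries. The groups stood in the order of HSPA5, without overlap. PDIA4 fell by 0.72 on the log2 scale in K562+L (SE 0.0786, adjusted p = 7.31e-04), and its log2 fold change in K562/IM was -0.44 (SE 0.0666, adjusted p = 9.08e-04). It rose by 0.28 in the IM+L-labelled libraries over K562/IM (SE 0.0584, adjusted p = 0.00403). Against K562 it was at -0.21 there (SE 0.0790, adjusted p = 0.0550), which passed the threshold with DESeq2 (adjusted p = 0.0366) and with limma-voom (0.0473).

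PDIA6 (chr2:10783391-10837977, minus strand) encodes P5, a protein disulfide isomerase that acts with BiP. It measured 661, 674 and 708 CPM in K562, 325, 357 and 349 CPM in K562+L, 375, 387 and 386 CPM in K562/IM, and 564, 571 and 495 CPM in the IM+L-labelled libraries. Here too the groups did not overlap and K562+L was lowest. PDIA6 fell by 0.99 on the log2 scale in K562+L (SE 0.0745, adjusted p = 1.73e-04), and its log2 fold change in K562/IM was -0.83 (SE 0.0611, adjusted p = 2.62e-05). PDIA6 rose by 0.53 in the IM+L-labelled libraries over K562/IM (SE 0.0732, adjusted p = 4.76e-04) and stayed below K562 (-0.34, SE 0.0926, adjusted p = 0.0161). The last call was lost without K562 replicate 2 (adjusted p = 0.0542) and with upper-quartile scaling (-0.19, adjusted p = 0.106). Exons of ATP6V1C2 overlap PDIA6 on the other strand.

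CRELD2 (chr22:49918167-49927540, plus strand) encodes a disulfide isomerase with EGF-like repeats that is secreted in ER stress. It measured 17.4, 26.5 and 31.0 CPM in K562, 16.9, 17.6 and 14.5 CPM in K562+L, 14.6, 13.4 and 12.9 CPM in K562/IM, and 23.7, 26.9 and 21.5 CPM in the IM+L-labelled libraries. The first K562 library lay within the K562+L range, while the K562/IM libraries were below those of K562 and below those labelled K562/IM+L. In K562+L the log2 fold change was -0.61 (SE 0.199, adjusted p = 0.0424). That call was lost in 5 of 6 fits that left out 1 library (adjusted p from 0.0753 to 0.127), and without K562 replicate 1 the value was -0.83 (adjusted p = 0.00156). CRELD2 was lower in K562/IM than in K562 (-0.88, SE 0.195, adjusted p = 0.00597) and higher in the IM+L-labelled libraries than in K562/IM (0.85, SE 0.107, adjusted p = 3.10e-04). Against K562 the latter gave -0.07 (95% confidence interval -0.57 to 0.43). ALG12, on the other strand, overlaps exons of CRELD2.

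HERPUD1 (chr16:56932048-56944863, plus strand) encodes HERP, a membrane protein of the complex that removes misfolded proteins from the ER for degradation. It measured 56.6, 52.4 and 56.0 CPM in K562, 22.1, 24.9 and 25.7 CPM in K562+L, 57.9, 62.8 and 57.3 CPM in K562/IM, and 103, 102 and 92.7 CPM in the IM+L-labelled libraries. The 4 groups were apart, with K562+L lowest and the IM+L-labelled libraries highest. In K562/IM all 3 libraries lay above those of K562, with a log2 fold change of 0.11 that did not pass the test (95% confidence interval -0.07 to 0.28, adjusted p = 0.252). It fell by 1.18 on the log2 scale in K562+L (SE 0.0933, adjusted p = 1.97e-04). HERPUD1 rose by 0.77 in the IM+L-labelled libraries over K562/IM (SE 0.0732, adjusted p = 7.14e-05) and was higher than in K562 by 0.83 (SE 0.0882, adjusted p = 2.25e-04).

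XBP1 (chr22:28794555-28800597, minus strand) encodes the transcription factor of the IRE1 arm. Its 12 values ran from 85.2 to 112 CPM. They were 105, 108 and 112 CPM in K562, 90.8, 101 and 85.2 CPM in K562+L, 88.2, 90.0 and 85.9 CPM in K562/IM, and 95.6, 98.4 and 95.9 CPM in the IM+L-labelled libraries. The K562 libraries were above all others. In K562+L the log2 fold change was -0.23 (95% confidence interval -0.44 to -0.02, adjusted p = 0.0815), which passed in a joint fit of the 12 libraries (adjusted p = 0.0214) and with upper-quartile scaling (0.0495). XBP1 was lower in K562/IM than in K562 (-0.30, SE 0.0658, adjusted p = 0.00602) and higher in the IM+L-labelled libraries than in K562/IM (0.16, SE 0.0598, adjusted p = 0.0456). The last call was lost in 5 of 6 fits that left out 1 library (adjusted p from 0.0929 to 0.148).

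An interaction term in a fit of the 12 libraries and 13995 genes asked whether the labelled lycorine effect differed between the lines. Here too the line cannot be told apart from exposure to IM. The effect in K562/IM minus that in K562 was positive past the threshold in 9 of the 10 genes and negative in 0, where 29.9% of all genes were called positive and 31.7% negative. The median was 1.16, against -0.02 for all genes. HERPUD1 had the largest difference of the 10, 1.93 on the log2 scale (SE 0.111, adjusted p = 6.48e-08), followed by PDIA6 at 1.50 (SE 0.0977) and SDF2L1 at 1.47 (SE 0.246). For HSP90B1, which fell in both lines, the difference was 1.00 (SE 0.0866, adjusted p = 1.64e-06). DNAJC3 gave -0.29 (95% confidence interval -0.57 to -0.01, adjusted p = 0.0656), and it passed the threshold without K562 replicate 1 (adjusted p = 0.0154) or without K562+L replicate 1 (0.0299).

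Across the 12 libraries, each gene was set beside the mean of the other 9, all scaled to the same variance, on log2(CPM + 1). Pearson's r was 0.99 for PDIA6, 0.96 for PDIA4 and 0.95 for HSPA5. It was 0.76 for HSP90B1 and SDF2L1, 0.75 for XBP1, 0.68 for CRELD2 and 0.55 for HERPUD1. DNAJB9 (0.22) and DNAJC3 (-0.49) followed the others least. The points share libraries and groups, and the values are descriptions. By the same measure, the genes outside the set whose profile over 12 libraries was most like the mean of the 10, among 9320 genes, were CHCHD7 (0.98), the disulfide isomerase gene PDIA3 (0.98), NDUFA4 (0.97), CARS1 (0.96) and MND1 (0.96). PDIA3 measured 415, 419 and 423 CPM in K562, 225, 253 and 236 CPM in K562+L, 259, 275 and 262 CPM in K562/IM, and 399, 408 and 359 CPM in the IM+L-labelled libraries.

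The fold changes of all genes moved with transcript length. In K562+L against K562 the median log2 fold change was -0.47 over 646 genes with transcripts under 1000 bases and 0.19 over 4462 genes of 4000 bases and more. Between IM+L-labelled libraries and K562/IM it ran the other way, from 0.59 to -0.27. SDF2L1 (865 bases), CRELD2 (1357 bases) and XBP1 (1850 bases) have the shortest transcripts of the set, and DNAJC3 (5591 bases) the longest. After a smooth trend with length was taken out, an alternative added once the data had been seen, HSPA5 (-1.17), HSP90B1 (-1.21), PDIA4 (-0.70), PDIA6 (-0.91), HERPUD1 (-1.17) and SDF2L1 (-0.71) kept their calls in K562+L. CRELD2 did not (-0.38, adjusted p = 0.0793). With IM+L-labelled libraries against K562/IM, SDF2L1 (-0.14, adjusted p = 0.0897), XBP1 (-0.04) and DNAJC3 (0.03) changed sign and lost their calls, while HSPA5 (0.34), DNAJB9 (0.66), PDIA4 (0.26), PDIA6 (0.42), CRELD2 (0.51), HERPUD1 (0.76) and HSP90B1 (-0.22) kept theirs. XBP1 lost its calls in K562/IM against K562 (-0.14, adjusted p = 0.0540) and in the interaction (0.04, adjusted p = 0.665). Against K562, PDIA4 (-0.22, adjusted p = 0.0172) and XBP1 (-0.24, adjusted p = 0.0123) became called as lower in the IM+L-labelled libraries.

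**Figure D4:**
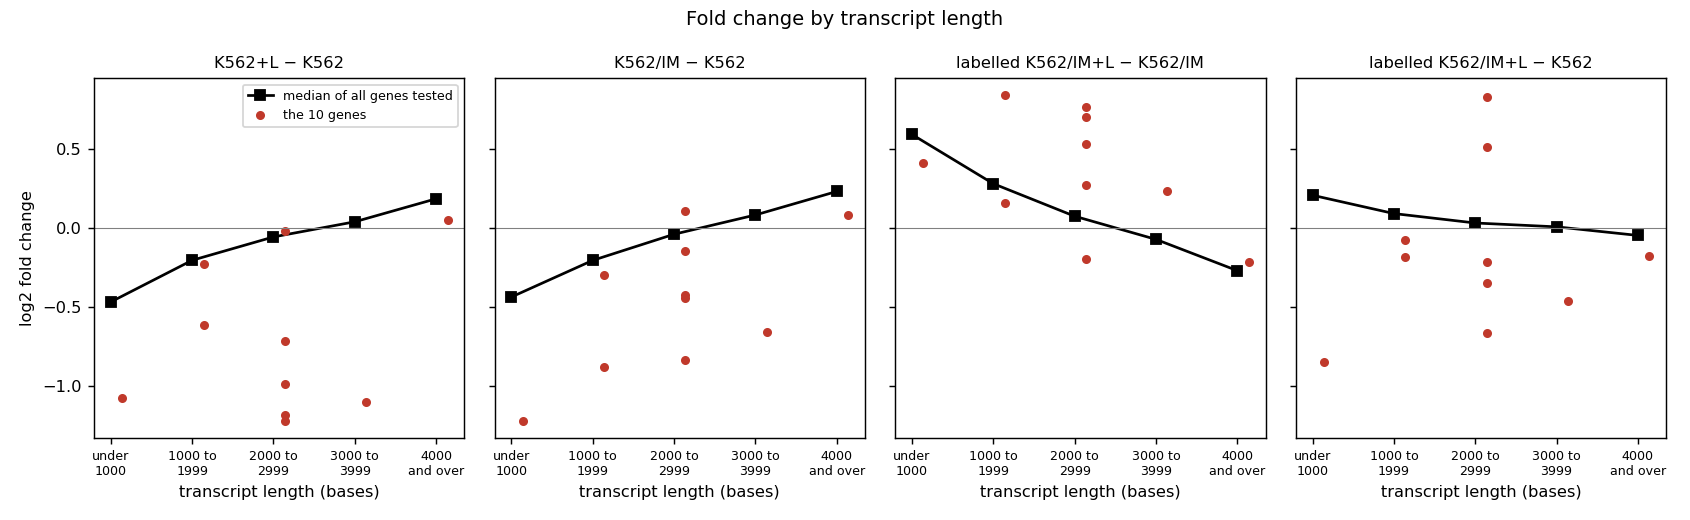
Log2 fold change by transcript length in 4 comparisons. Black squares are the medians of all genes tested in 5 bins of length, and red points are the 10 genes in their bins. The medians rise with length in K562+L and in K562/IM against K562 and fall from 0.59 to -0.27 in the IM+L-labelled libraries against K562/IM, while HERPUD1 and HSP90B1, both in the third bin, lie far below its median of -0.05 in K562+L.

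Libraries of a group also differed by length. In K562 replicate 1, 422 genes under 1000 bases had a median log2 deviation of -0.22 from the mean of the 3 K562 libraries, and SDF2L1 deviated by -0.35 and CRELD2 by -0.46. In replicate 3 of the IM+L-labelled libraries these were -0.29, -0.31 and -0.15. SDF2L1 gave -1.24 in K562+L and -1.41 in K562/IM without K562 replicate 1, and 0.55 in the IM+L-labelled libraries over K562/IM without replicate 3 of the former. The part of these deviations in the results was not tested beyond those fits.

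Of 155 other genes of ER proteostasis in 7 written lists, 152 were tested in K562+L against K562, and 18 rose (11.8%) and 41 fell (27.0%), where 18.2% and 19.0% of all genes did. In K562/IM 29 of 152 were higher (19.1%) and 65 lower (42.8%), where 30.1% and 27.1% of all genes were. In the IM+L-labelled libraries 59 of 153 were higher (38.6%) and 44 lower (28.8%) than in K562/IM, which lies near the 33.2% and 33.6% of all genes. Against K562 the latter had 25 of 153 higher (16.3%) and 52 lower (34.0%), where 28.2% and 27.8% of all genes were called. The counts of single lists are given without a test, and several lie near these shares of all genes, as the 11 higher (37.9%) and 8 lower (27.6%) of 29 degradation genes between IM+L-labelled libraries and K562/IM. Values given for single genes of these lists keep the trend with transcript length, and its part in them was not tested. The median log2 fold change of the 152 was -0.12 in K562+L, against -0.85 for the 10 genes. In the interaction 60 of 153 were positive (39.2%) and 42 negative (27.5%), where 29.9% and 31.7% of all genes were, with 15 and 7 of the chaperones, 10 and 6 of the disulfide exchange genes, 8 and 7 of the degradation genes, 15 and 7 of the translocon genes and 6 and 8 of the COPII genes.

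Among 30 other ER chaperones and folding factors, 10 fell (33.3%) and 1 rose (3.33%) in K562+L, where 19.0% and 18.2% of all genes did. MANF, a secreted ER stress protein, fell by 1.03 on the log2 scale (adjusted p = 0.00318) and FKBP2, a lumenal prolyl isomerase, by 1.09 (adjusted p = 0.0141), whereas TOR1B rose by 0.27 (adjusted p = 0.0393). In K562/IM 11 of the 30 were lower (36.7%) and 6 higher (20%), where 27.1% and 30.1% of all genes were. FKBP2 was at -1.39, MESD at -0.85, UGGT2 at 0.74 and HSPA13 at 0.50. Between IM+L-labelled libraries and K562/IM 11 rose (36.7%) and 8 fell (26.7%), near the 33.2% and 33.6% of all genes. FKBP2 gave 1.35 and CNPY3 0.82 there, and UGGT2 -1.13 and HSPA13 -0.96. Against K562 the IM+L-labelled libraries had 4 higher (13.3%) and 12 lower (40%), where 28.2% and 27.8% of all genes were. Among them were SIL1 (0.79), the exchange factor of BiP, PRKCSH (0.43), DNAJC10 (-0.84) and MESD (-0.72).

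Of the disulfide exchange genes outside the set, 8 of 20 fell in K562+L (40%) and 0 rose, where 19.0% and 18.2% of all genes did. PDIA5 fell by 0.99 (adjusted p = 2.86e-04) and ERP29 by 0.88 (adjusted p = 0.00120). In K562/IM 9 of 20 were lower (45%) and 4 higher (20%), where 27.1% and 30.1% of all genes were. PRDX4 (-1.01) and ERP29 (-0.95) were among the lower, the oxidase gene ERO1B (1.37) and CRELD1 (0.89) among the higher. Going from K562/IM to the IM+L-labelled libraries, 10 of 21 rose (47.6%) and 7 fell (33.3%), where 33.2% and 33.6% of all genes did. ERP29 gave 1.66, ERP44 0.89, ERO1B -1.41 and ERO1A -1.32. Against K562, 7 of 21 were higher (33.3%) and 5 lower (23.8%), near the 28.2% and 27.8% of all genes. CRELD1 was at 1.74, ERP29 at 0.67, ERO1A at -1.40 and TMX2 at -1.01.

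The genes of ER-associated degradation, to which HERPUD1 belongs, were 29 outside the set. In K562+L 4 of them rose (13.8%), among them FAF2 (0.33) and EDEM2 (0.32), and 1 fell (3.45%), where 18.2% and 19.0% of all genes did. HERPUD1 fell by 1.18 there. In K562/IM 9 were lower (31.0%) and 3 higher (10.3%), where 27.1% and 30.1% of all genes were. UFD1 was at -0.77, AUP1 at -0.55 and EDEM1 at 0.48. Among IM+L-labelled libraries, 11 were higher (37.9%) and 8 lower (27.6%) than in K562/IM, near the 33.2% and 33.6% of all genes. The lectin gene OS9 gave 1.36, EDEM2 1.06, EDEM3 -1.21 and EDEM1 -0.90. Against K562, 5 were higher (17.2%) and 10 lower (34.5%), where 28.2% and 27.8% of all genes were. OS9 was at 1.07, EDEM2 at 0.80, ERLIN1 at -0.85 and EDEM3 at -0.84.

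Of 33 translocon and signal peptide processing genes, 12 fell in K562+L (36.4%) and 3 rose (9.09%), where 19.0% and 18.2% of all genes did. OST4 was at -0.77, SEC61B at -0.74, SRPRB at 0.43 and SEC62 at 0.40. In K562/IM 24 were lower (72.7%) and 3 higher (9.09%), where 27.1% and 30.1% of all genes were. SEC11C was at -1.86, SSR4 at -0.99, SEC61A2 at 0.56 and TRAM2 at 0.45. From K562/IM to the IM+L-labelled libraries 15 rose (45.5%) and 8 fell (24.2%), where 33.2% and 33.6% of all genes did. SEC11C gave 1.53, SSR4 1.29, TRAM2 -1.11 and STT3B -1.06. Against K562, 14 were lower (42.4%) and 0 higher, where 27.8% and 28.2% of all genes were. STT3B was at -1.15 and SRPRB at -1.03. Of 21 genes of COPII export from the ER, 6 rose (28.6%) and 4 fell (19.0%) in K562+L, where 18.2% and 19.0% of all genes did. SEC24B gave 0.90, SEC24A 0.52, KDELR3 -0.60 and KDELR1 -0.43. In K562/IM 4 were higher (19.0%) and 8 lower (38.1%), where 30.1% and 27.1% of all genes were. SEC24D was at 1.29, SEC23A at 0.77, SAR1A at -1.08 and TMED2 at -0.45. SAR1A measured 48.4, 49.4 and 141 CPM in K562 and 33.8, 40.6 and 38.0 CPM in K562/IM (adjusted p = 0.0466). The size of its difference thus rests largely on K562 replicate 3. Of the same 21 genes, from K562/IM to the IM+L-labelled libraries 6 rose (28.6%) and 7 fell (33.3%), near the 33.2% and 33.6% of all genes. SEC13 gave 0.70, KDELR3 0.62, SEC23A -0.78 and MCFD2 -0.63. Against K562, 4 were higher (19.0%) and 7 lower (33.3%), where 28.2% and 27.8% of all genes were. SEC24D was at 0.83, KDELR3 at 0.78, TMED2 at -0.83 and MCFD2 at -0.77.

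**Figure D5:**
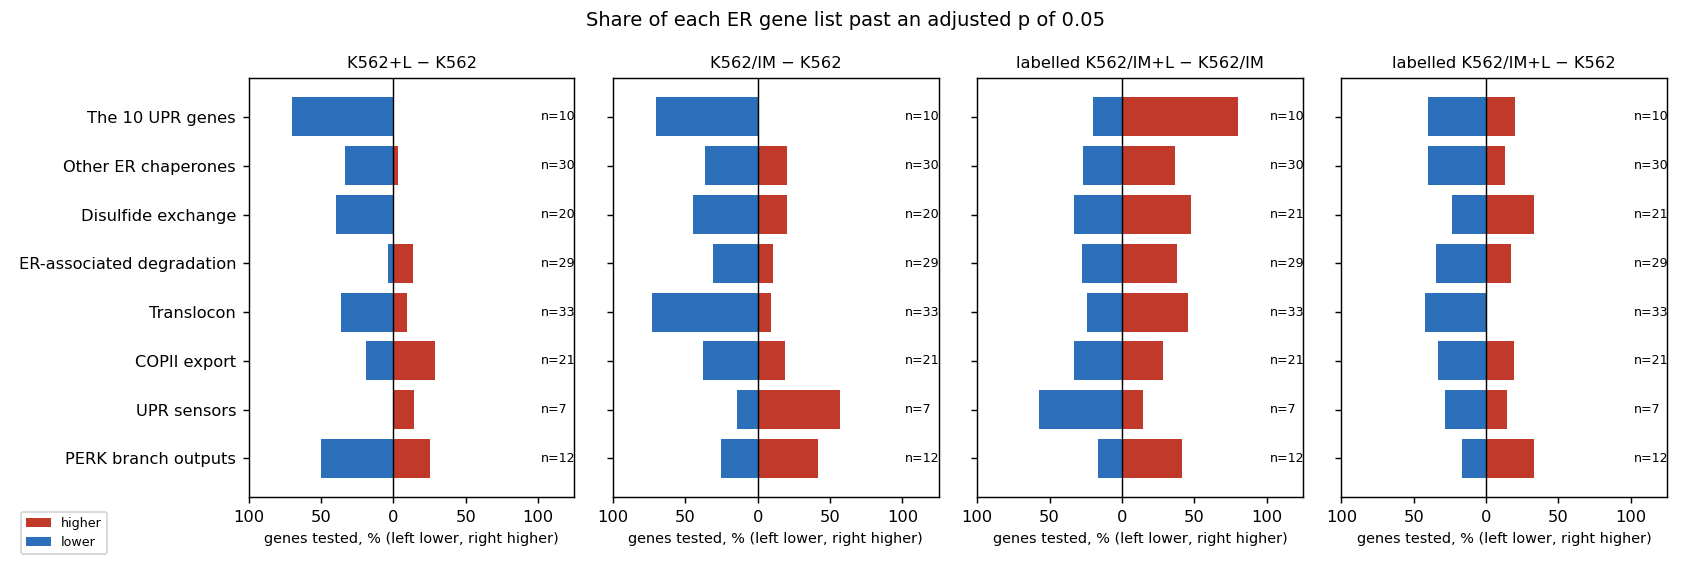
Percent of the genes tested in each list that passed an adjusted p of 0.05, lower to the left and higher to the right, in 4 comparisons. The number tested is given at the right of each bar. Of the 10 genes, 7 are lower in K562+L and in K562/IM, where 19.0% and 27.1% of all genes are. In the IM+L-labelled libraries against K562/IM, 8 of the 10 are higher and 4 of 7 sensors and their partners are lower. Of all genes, 33.2% are higher and 33.6% lower there.

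The sensors, their proteases and RTCB made a list of 7. In K562+L 1 of the 7 rose (14.3%), MBTPS2, the site-2 protease gene (0.79, adjusted p = 0.00114), and 0 fell. Of all genes in that comparison, 18.2% rose and 19.0% fell. ERN1 gave 0.19, EIF2AK3 0.28 and ATF6 0.19 there, all short of the threshold (adjusted p from 0.148 to 0.361), as did ATF6B (-0.04) and the site-1 protease gene MBTPS1 (-0.03). In K562/IM ERN1 (0.80, adjusted p = 0.00115), EIF2AK3 (0.65, adjusted p = 0.00328), ATF6B (0.47) and MBTPS2 (0.25) were higher, and RTCB, the ligase gene of XBP1 splicing, was lower (-0.58). Over K562/IM, the IM+L-labelled libraries showed a fall of ERN1 (-0.92), MBTPS2 (-0.81), ATF6 (-0.55) and EIF2AK3 (-0.47) and a rise of RTCB (0.36). ATF6 measured 120, 118 and 124 CPM in K562/IM and 74.3, 76.0 and 92.2 CPM in the IM+L-labelled libraries. Against K562, ATF6B was higher there (0.72), and MBTPS2 (-0.61) and ATF6 (-0.53) were lower. In the interaction 4 of the 7 were negative and 0 positive, where 31.7% and 29.9% of all genes were. MBTPS2 gave -1.63, ERN1 -1.13, EIF2AK3 -0.78 and ATF6 -0.76 (adjusted p at most 0.00227), where 9 of the 10 genes of the set were positive. These 4 genes have transcripts of 4000 bases and more, and the interaction median of all genes of that length was -0.49. The part of length in their values was not tested.

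ATF4, the factor whose translation PERK raises, measured 456, 475 and 527 CPM in K562, 286, 319.7 and 311 CPM in K562+L, 409, 407 and 399 CPM in K562/IM, and 604, 602 and 499.5 CPM in the IM+L-labelled libraries. It fell by 0.67 on the log2 scale in K562+L (adjusted p = 0.00138), was at -0.26 in K562/IM (adjusted p = 0.0161) and rose by 0.52 in the IM+L-labelled libraries over K562/IM (adjusted p = 0.00120). In K562+L 6 of 12 outputs fell (50%) and 3 rose (25%), where 19.0% and 18.2% of all genes did. CHAC1 (-3.59) and DDIT4 (-1.59) led those that fell, and PPP1R15A (1.49), ATF3 (1.29) and DDIT3 (0.92) rose. PPP1R15A, the phosphatase subunit gene that reverses PERK signalling, measured 90.5, 85.0 and 101 CPM in K562, 252, 259.6 and 267 CPM in K562+L, 220.3, 226 and 222 CPM in K562/IM, and 452, 396 and 335 CPM in the IM+L-labelled libraries. It was thus higher in the other 3 groups than in K562, by 1.49, 1.27 and 2.08 on the log2 scale (adjusted p at most 7.82e-05). In K562/IM 5 of 12 outputs were higher (41.7%) and 3 lower (25%), where 30.1% and 27.1% of all genes were. DDIT3 was at 0.89, WARS1 at -0.96 and TRIB3 at -0.85. Relative to K562/IM, 5 rose (41.7%) and 2 fell (16.7%) in the IM+L-labelled libraries, where 33.2% and 33.6% of all genes did. DDIT4 gave 1.21 and CHAC1 1.17, and the 2 that fell were WARS1 (-0.61) and PPP1R15B (-0.28). DDIT3 gave 0.14 there (adjusted p = 0.389). Against K562, 4 were higher (33.3%) and 2 lower (16.7%), where 28.2% and 27.8% of all genes were. DDIT4 was at 1.63 and DDIT3 at 0.98, and the 2 lower were WARS1 (-1.62) and TRIB3 (-1.003). In the interaction ATF4 was positive (1.16, adjusted p = 7.47e-06), and DDIT3 (-0.80) and PPP1R15A (-0.66) were negative.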

How the data were processed

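Poly(A)-selected RNA was sequenced in 12 libraries, 3 per group, grouped by the treatment in their labels. The authors deposited raw counts per gene symbol and library, without normalization. Per the labels, FastQC, STAR, StringTie and DESeq2 were used with build hg38, without versions or roles. The annotation and the strand setting are not given in the sources used here. Total counts ran from 75093844 to 107344598. Of 23289 values from 1 to 25, 67.9% were a multiple of 4 or 1 above one, so that counting noise may exceed what the totals give. Of 19447 symbols, 19029 matched GENCODE release 29.

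Each pairwise comparison used its 6 libraries, filterByExpr (minimum count 10), TMM and the quasi-likelihood test of edgeR 4.0.16 in R 4.3.3, fitted on the whole table with Benjamini-Hochberg adjustment. The interaction used all 12. CPM used TMM over the 12 libraries. Alternatives used DESeq2 1.42.0, limma 3.58.1, RLE and upper-quartile scaling, other filters and thresholds, counts divided by 4, the replicate block, 1 fit of all libraries and leaving out each library. A length trend (loess, span 0.5) was an alternative added after the data were seen. With 3 libraries a group, the smallest p of an exact permutation test is 0.1, so none was used.

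The 10 genes and the lists were chosen with earlier results of these data known. Other genes named were the sensors ERN1, EIF2AK3, ATF6, ATF6B, MBTPS1 and MBTPS2, the outputs ATF4, DDIT3 and PPP1R15A, in each list and comparison at most 2 called genes per direction of largest change with a mean of at least 5 CPM, and the 5 genes of most similar profile with a mean of at least 10 CPM. A few genes that the rule names are not reported here. No batch or date is given. Protein and animal measurements were not analysed here.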

Additional observations from a re-analysis of the deposited data

Results flagged for a closer look

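In 9 of the 10 genes the labelled lycorine effect differed between K562/IM and K562, by the interaction test of edgeR with Benjamini-Hochberg adjustment over 13995 genes. The difference was 1.32 on the log2 scale for HSPA5 (adjusted p = 2.45e-07), 1.00 for HSP90B1 (1.64e-06), 0.70 for DNAJB9 (0.00300) and 1.47 for SDF2L1 (2.94e-04). It was 0.97 for PDIA4 (1.48e-06), 1.50 for PDIA6 (1.80e-07), 1.44 for CRELD2 (3.69e-04), 1.93 for HERPUD1 (6.48e-08) and 0.37 for XBP1 (0.00655). All 9 were positive, where 29.9% of all genes were called positive. With the length trend removed, SDF2L1 gave 0.59 (adjusted p = 0.00555), CRELD2 0.89 (0.00139) and XBP1 0.04 (0.665), while before its removal the median was 0.94 over 753 genes under 1000 bases and -0.49 over 4762 genes of 4000 bases and more. The test rests on the label of the K562/IM+L libraries.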

How the results depend on the processing

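Of 850 refits of the 10 genes' log2 fold changes, 784 kept direction and side of the threshold, 43 lost a call, 10 gained one and 13 changed sign. An added limit of an absolute log2 fold change over 1 left 4, 1, 0 and 0 of the 10 genes (K562+L and K562/IM against K562, the IM+L-labelled libraries against K562/IM and against K562) and 9, 10, 17 and 13 of the other ER genes, and 39 in the interaction. At an adjusted p under 0.01, 5 of the 10 genes (and 53.7% of all genes) were called in the IM+L-labelled libraries against K562/IM, and 30 and 49 other ER genes in K562+L and in the IM+L-labelled libraries against K562. Leaving out 1 library gave 5 to 10 of the 10 genes in the IM+L-labelled libraries against K562/IM, and 33 (without K562 replicate 2) to 67 other ER genes in K562+L.

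Same-numbered libraries did not deviate together (r from -0.66 to 0.14 over the 4 pairs of groups). Libraries of different number ran from r = -0.52 to 0.65. Both extremes involved K562 replicate 1, set against replicates 2 and 3 of the IM+L-labelled libraries. Deviations were thus partly shared across groups, and their source was not tested. With the replicate block, 50 other ER genes were called in the IM+L-labelled libraries against K562, where 77 were without it. CRELD2 in K562+L (adjusted p = 0.0767), HSP90B1 (0.0583), DNAJC3 (0.0523) and XBP1 (0.0994) in the IM+L-labelled libraries against K562/IM, and PDIA6 in the same against K562 (0.0864) lost their calls under the block, which changed no other call of the 10 genes. With upper-quartile scaling, PDIA6 in the IM+L-labelled libraries against K562 lost its call (adjusted p = 0.106). HSP90B1 (0.0828) and DNAJC3 (0.0653) lost theirs against K562/IM, and XBP1 in K562+L gained one (0.0495).

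With the length trend removed, signs changed for DNAJB9 (0.012) and DNAJC3 (-0.12) in K562+L, DNAJC3 in K562/IM (-0.064), DNAJC3 (0.030), SDF2L1 (-0.14) and XBP1 (-0.044) in the IM+L-labelled libraries against K562/IM, and DNAJC3 in the interaction (0.11). Leaving out 1 library moved DNAJB9 in K562+L from -0.11 to 0.079, DNAJC3 from -0.016 to 0.14, and CRELD2 in the IM+L-labelled libraries against K562 from -0.28 to 0.10. Upper-quartile scaling gave 0.075 for the last and shifted the median of all genes by 0.15 there and by 0.13 in the interaction. None of these sign changes passed the test, and their cause was not tested. CRELD2, at 12.9 to 31.0 CPM, had the lowest CPM of the 10 and the largest SD relative to its mean in K562.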

Other observations

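Besides the 7 genes of the set, 37 genes held an exact ER stress response element or its second form in a promoter window, out of 27305 genes, and 4 of the 37 are in the ER lists above. In K562+L against K562, 22 of them were tested, and 7 were lower (31.8%) and 2 higher (9.09%), where 19.0% and 18.2% of all genes were, with a median log2 fold change of -0.30 against -0.000117 over all genes. In K562/IM 9 of 23 were lower (39.1%) and 5 higher (21.7%), where 27.1% and 30.1% of all genes were. In the IM+L-labelled libraries, 10 of 23 were higher (43.5%) and 5 lower (21.7%) than in K562/IM, where 33.2% and 33.6% of all genes were. Against K562 they had 4 of 22 higher (18.2%) and 7 lower (31.8%), where 28.2% and 27.8% of all genes were called. In the interaction 9 of 23 were positive (39.1%) and 4 negative (17.4%), where 29.9% and 31.7% of all genes were. These are counts without a test.

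The spread between libraries of a group differed between the genes. The SD of CRELD2 in K562 was 27.7% of its mean and that of SDF2L1 19.9%, whereas HSP90B1 stood at 1.59%, XBP1 at 3.10% and HSPA5 at 3.12%. In K562/IM the largest of the 10 was DNAJB9 at 8.07% and the smallest PDIA4 at 0.606%.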
